A study of Mus musculus with 48 samples.

Results

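Mouse liver was compared across the end of the night, from the dark hours before lights on to the hours after it. Libraries labelled ZT0 and ZT2 (dawn) were set against libraries labelled ZT20 and ZT22 (late night), where ZT, zeitgeber time, counts the hours since lights on. These are 16 of the study's 48 libraries, taken by label alone. They come from 8 of the 24 liver pools, 4 at dawn and 4 in late night, and each pool gave 1 total RNA library and 1 ribosome footprint library. Total RNA sequencing measures how much of each transcript a pool held. Ribosome profiling sequences only the stretches of mRNA that ribosomes shield from a nuclease, the footprints, so its value for a gene rises with both the amount of mRNA and the number of ribosomes on it. Mice of both groups were male C57BL/6JRj animals of 11 to 12 weeks, held for 2 weeks under 12 h of light and 12 h of darkness, and the labels name no allele or treatment for any group. Each pool joined the livers of 2 mice in 1 lysate, and both assays drew on that lysate. Replicates are therefore pools of different animals. The labels do not say on which days the pools were collected or when the mice ate.

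In a nocturnal rodent the late night closes the active and feeding phase and dawn opens the phase of rest, and liver metabolism turns with it. Genes of fatty acid and cholesterol synthesis respond to feeding through insulin and sterol-sensing factors, while the circadian clock runs on activators (Arntl, which encodes BMAL1, and Clock) that drive their own repressors (the Per, Cry and Nr1d genes) and output factors such as Dbp and Tef. The liver also secretes most plasma proteins, and these fold in the endoplasmic reticulum (ER) with the help of chaperones such as Hspa5, whose genes answer to unfolded protein.

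By estimate from the steps of their low values, the libraries held about 7.67 to 16.1 M reads on listed genes in total RNA and 14.8 to 22.3 M in footprints. All 10 hepatocyte markers were present in every library, and none was at 0. Their summed level was 63040 to 70080 RPKM at dawn and 77270 to 95880 RPKM in late night in total RNA, and 96200 to 105000 at dawn and 113400 to 125500 in late night in footprints, where RPKM are reads corrected for the length of a gene and the size of its library. Summed total RNA of 12 endothelial markers (311.1 to 330.1 RPKM at dawn, 347.4 to 392.0 in late night) and of 11 stellate cell and matrix markers (278.8 to 295.0 at dawn, 347.1 to 436.3 in late night) was also lower at dawn without overlap. The part of these shifts in the results was not tested. In whole liver, fewer cells of a type and less RNA per cell cannot be told apart. Some libraries stood apart in ways that touch the comparison. Both ZT2 pools held transcripts of the exocrine pancreas, with the 11 of 18 markers listed in total RNA summing to 393.5 and 879.6 RPKM against 5.777 to 14.52 in the other 6 pools, and the 16 listed in footprints to 901.6 and 1754 RPKM against 6.371 to 11.17. Both total RNA libraries of ZT22 were shifted towards genes rich in G and C. Their Spearman correlation between a gene's deviation from its mean and its GC content was 0.583 and 0.551 over 9388 genes, while it was −0.109 to 0.317 in the other 6 total RNA libraries and −0.135 to 0.264 in the 8 footprint libraries. The same correlation taken with coding length was 0.029 to 0.065 in the dawn libraries of total RNA and −0.277 to −0.006 in the late night ones. In footprints it was 0.008 to 0.167 at dawn and −0.264 to 0.027 in late night. Correlations over genes describe a library and carry no test, and the part of GC content in the results was not tested beyond the values given beside them. No fit removed a trend with coding length, and its part in the results was not tested.

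**Figure D1:**
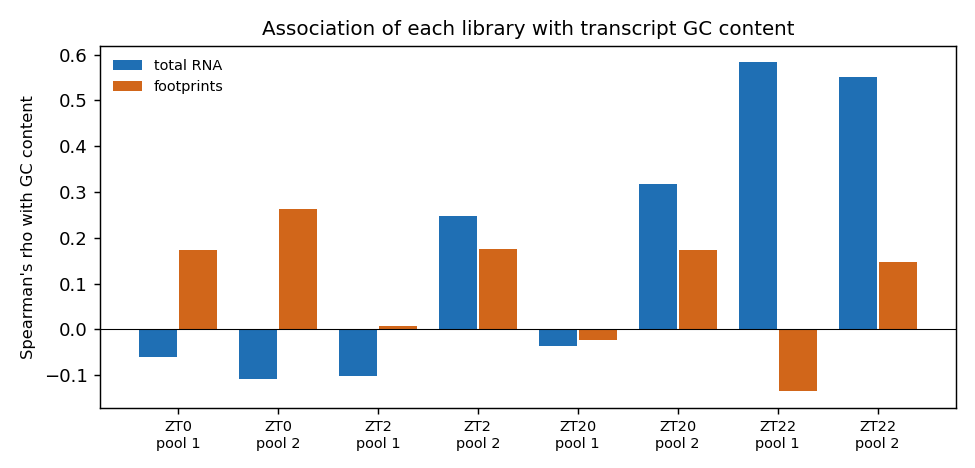
Bars give, for each of the 16 libraries, a Spearman correlation over 9388 genes (vertical axis, no unit), with total RNA and footprints shown apart. It is taken between a gene's log2 deviation from its mean and the GC content of its longest protein-coding transcript. The ZT22 libraries of total RNA reach 0.583 and 0.551 and footprint libraries stay between −0.135 and 0.264.

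Of 9445 genes tested on log2(RPKM + 0.1) with limma and Benjamini-Hochberg adjustment, 139 differed in total RNA at an adjusted p under 0.05 (1.47%), 43 of them higher at dawn (0.455%) and 96 lower (1.02%). In footprints 66 genes differed (0.699%), 26 higher (0.275%) and 40 lower (0.424%). The median change was 1.49-fold among the total RNA calls and 1.605-fold among the footprint calls, and 67 and 39 of them reached 1.5-fold. The median log2 change over all tested genes was −0.02 in total RNA and −0.01 in footprints. At an unadjusted p under 0.05 there were 1927 genes in total RNA and 1626 in footprints. All 4 dawn libraries lay above all 4 late night libraries for 5.07% of genes in total RNA and 4.78% in footprints, and below them for 7.88% and 6.35%. Genes called higher in total RNA had a median GC content of 45.2% and those called lower 54.4%, against 49.7% over all tested genes. In footprints the medians were 49.4% among higher and 47.9% among lower genes. Median coding length was 1769.5 bases among genes called higher in total RNA and 835.5 among those called lower, against 1362 over all tested genes. The calls rest on all 8 pools of an assay. Leaving out 1 pool gave 2 (without ZT2 replicate 1) to 296 (without ZT20 replicate 1) calls in total RNA and 7 (without either ZT20 pool) to 46 (without ZT22 replicate 2) in footprints. Without both ZT2 pools no gene passed in either assay by limma, although 1370 in total RNA and 1506 in footprints had an unadjusted p under 0.05. There, all 80 called values of genes named below kept their sign, with a median of 0.982 of their log2 change and adjusted p between 0.0563 and 0.256. These values were chosen as called with the ZT2 pools included. Where the groups did not overlap, leaving out pools could not change the sign, so the kept signs are no separate support.

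A minority of the tested genes of protein folding in the ER rose at dawn, Dnajb9 and Manf in both assays. Of 19 tested endoplasmic reticulum chaperones and folding factors, 3 rose in total RNA (Dnajb9, Hspa5 and Manf), 3 rose in footprints (Dnajb9, Herpud1 and Manf), and none fell. The list's median log2 change was 0.20 in total RNA and 0.16 in footprints, and 18 and 16 of its genes had a positive value. Dnajb9 (chr12:44205559-44210326, GRCm38) encodes a co-chaperone of the ER lumen. Its total RNA was 89.3 and 75.9 RPKM at ZT0 and 88.1 and 78.8 RPKM at ZT2, against 32.1 and 38 at ZT20 and 29.1 and 34.3 at ZT22. Every dawn pool thus stood well above every late night pool. The widest rises and falls were named only among genes whose groups do not overlap, so for them this separation is no separate result. The means were 83.0 ± 6.69 RPKM at dawn and 33.4 ± 3.75 in late night (SD, n = 4 each), a rise of 2.49-fold (95% confidence interval 2.12 to 2.92, adjusted p = 0.00105). Dnajb9 footprints were 134 and 107 RPKM at ZT0 and 135 and 132 at ZT2, against 50 and 64.5 at ZT20 and 65.6 and 64.8 at ZT22. They rose 2.08-fold (1.75 to 2.47, adjusted p = 0.00541), and again the groups did not overlap. Manf (chr9:106838312-106891979), a secreted protein of the ER stress response, had 271, 231, 321 and 251 RPKM in the dawn pools and 150, 161, 120 and 123 in the late night pools in total RNA. Here and wherever 4 values stand for a period, the first 2 are the pools of its earlier time and the last 2 those of its later time. Manf rose 1.94-fold in total RNA (adjusted p = 0.0161) and 1.89-fold in footprints (adjusted p = 0.0398). Hspa5 (chr2:34771970-34777547), the main chaperone of the ER lumen and also called BiP, averaged 736 ± 96.5 RPKM at dawn and 442 ± 90.7 in late night in total RNA, a rise of 1.68-fold (adjusted p = 0.0443). Hspa5 footprints were 1.60-fold higher at dawn without passing the threshold (adjusted p = 0.0624). Herpud1, an ER membrane protein that serves the disposal of misfolded proteins, rose 1.48-fold in footprints (adjusted p = 0.0232) and was 1.31-fold higher in total RNA (adjusted p = 0.0547).

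The markers of the pancreas, a tissue rich in ER chaperones, were high in the ZT2 pools, so the values without those pools stand here. With only ZT0 at dawn, the log2 change in total RNA was 1.31 for Dnajb9, 0.86 for Manf and 0.66 for Hspa5, against 1.32, 0.95 and 0.75 with all pools. In footprints it was 0.98 for Dnajb9 and 0.79 for Manf, against 1.06 and 0.92. All 6 called values of this group were kept with the GC trend removed, and 2 of the 6, both of Dnajb9, were kept whichever single pool was left out. The footprint call of Manf was lost whichever single pool was left out (limma, adjusted p = 0.057 to 0.095). Without both ZT22 pools the median log2 change of the endoplasmic reticulum chaperones was 0.03 in total RNA and −0.09 in footprints.

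The promoters of several of these chaperones share a sequence that factors of the unfolded protein response are known to bind, the ER stress response element. It was searched as CCAAT, then any 9 bases, then CCACG, on both strands, from 250 bases before to 50 after the start of each gene in RefSeq (GRCm38.p6). It lay in 39 of 32851 such windows (0.12%), and in 7 of the 17 chaperone genes that had a window. Dnajb9, Manf and Herpud1 were not among the 7, and of the 7 Hspa5 alone was called between the periods. Capitals mark the element in the lines that follow, which show the gene of this set that rose between the periods, Hspa5, a gene that rose between ZT22 and ZT0, Creld2, and a pair that carry the element and did not pass the test in either assay, Pdia6 and Dnajc3.
Hspa5: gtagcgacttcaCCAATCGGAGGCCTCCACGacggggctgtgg
Creld2: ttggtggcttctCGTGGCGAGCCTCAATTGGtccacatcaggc
Pdia6: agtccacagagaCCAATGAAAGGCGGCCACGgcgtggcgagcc
Dnajc3: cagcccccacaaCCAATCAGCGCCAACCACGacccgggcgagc
They lie at chr2:34772013-34772055, chr15:88819508-88819550, chr12:17266479-17266521 and chr14:118937815-118937857, all on the plus strand, and in Creld2 the element runs in the opposite direction. The element in Hspa5 starts 65 bases before the start site. Total RNA of Pdia6 differed by 0.18 and that of Dnajc3 by 0.03 on the log2 scale, so genes that carry the same letters had unlike changes. A match in a promoter is a description of its letters only.

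Uap1 and Gfpt1 rose in both assays, Gmppb in total RNA and Alg2 in footprints. Uap1 (chr1:170141938-170174957) makes UDP-N-acetylglucosamine, the donor for N-linked sugar chains. Its footprints were 18.8, 17.5, 20.6 and 19.7 RPKM in the dawn pools against 11.0, 11.1, 10.1 and 10.2 in the late night pools. The spread within each group was small beside the gap between them, and the rise was 1.80-fold (1.59 to 2.02, adjusted p = 0.00375) in footprints and 1.47-fold (adjusted p = 0.0176) in total RNA. Gfpt1, the rate-limiting enzyme of the same pathway, rose 1.75-fold in total RNA (adjusted p = 0.0227) and 1.68-fold in footprints (adjusted p = 0.0477). Gmppb, which makes GDP-mannose, rose 1.86-fold in total RNA (adjusted p = 0.0161). Alg2, a mannosyltransferase that builds the sugar chain on its lipid carrier, had 19.4, 16.4, 15.6 and 18.5 RPKM of footprints at dawn against 8.96, 9.40, 9.06 and 9.91 in late night, a rise of 1.86-fold (adjusted p = 0.0044). Sec23b, a coat protein of vesicles leaving the ER, rose 1.59-fold in total RNA and 1.62-fold in footprints (adjusted p = 0.0161 and 0.0248). It was picked after its values were seen.

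A further 4 of the widest footprint rises passed in footprints alone. Arfgap3, which acts in traffic between ER and Golgi, rose 2.15-fold (adjusted p = 0.0426), Ficd, which modifies Hspa5, 1.99-fold (adjusted p = 0.0426), Creb3l2, an ER-bound transcription factor, 1.71-fold (adjusted p = 0.0232) and Wfs1, an ER membrane protein, 1.71-fold (adjusted p = 0.0232). Wfs1 had 5.28, 4.67, 4.43 and 5.86 RPKM of footprints at dawn against 3.07, 2.95, 2.77 and 2.80 in late night, while its total RNA differed by 0.14 on the log2 scale (adjusted p = 0.66). None of the 4 passed a test of the footprint to RNA ratio, so a difference between the assays was not shown. Selenos, a selenoprotein of ER quality control, rose 1.37-fold in total RNA (adjusted p = 0.0349). All 11 called values of the genes named in this and the preceding paragraph, Sec23b apart, were kept with the GC trend removed. Only those of Uap1 and Alg2 footprints were kept whichever single pool was left out, and the highest adjusted p without a pool was 0.121.

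**Figure D2:**
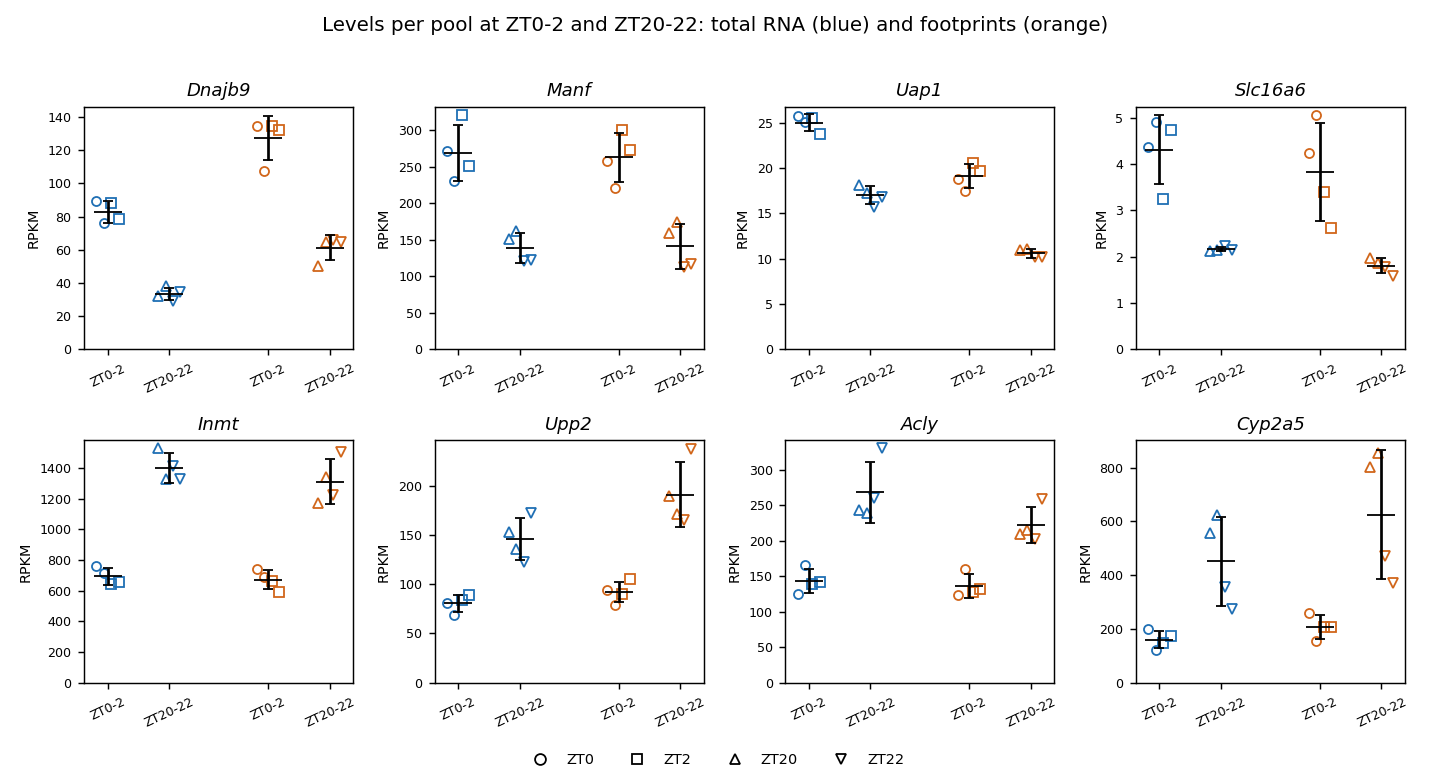
Points are RPKM (vertical axis) of single pools for 8 genes, with total RNA in blue on the left and footprints in orange on the right of each panel, ZT0-2 left of ZT20-22, marker shapes by time point, and bars at the mean ± SD of 4 pools. Dnajb9 averages 83.0 RPKM of total RNA at ZT0-2 and 33.4 at ZT20-22, and Inmt 693 and 1401.

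Among the other rises was that of Hspa1b, the inducible cytosolic HSP70. Total RNA of this gene was 31.0 and 41.8 RPKM at ZT0 and 21.4 and 10.1 at ZT2, against 6.39 and 8.58 at ZT20 and 5.6 and 2.85 at ZT22. Levels were highest at ZT0, and even the lowest dawn pool exceeded the highest late night pool. The rise was 4.16-fold with a wide interval (2.16 to 8.02, adjusted p = 0.0456), and Hspa1b shares most of its sequence with a neighbouring copy, so its reads may be split. Of 22 tested cytosolic heat shock genes it was the single call in total RNA, with none in footprints, and the medians were 0.10 and 0.02 on the log2 scale. Slc16a6, a transporter known to export ketone bodies from hepatocytes in zebrafish, rose in both assays. The total RNA level was 4.37, 4.90, 3.24 and 4.73 RPKM at dawn against 2.13, 2.14, 2.23 and 2.14 in late night, a rise of 1.93-fold (adjusted p = 0.0297), and its footprints rose 2.01-fold (adjusted p = 0.0481). Insig2, which retains the sterol sensor in the ER, rose 1.59-fold in total RNA (adjusted p = 0.0176) and was 1.29-fold higher in footprints (adjusted p = 0.162).

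Initiation factors gave a pair of calls. Of 39 tested, Eif1a rose 2.01-fold (adjusted p = 0.0161) and Eif3a 1.33-fold (adjusted p = 0.043) in total RNA, and none passed in footprints. Of 15 bile acid genes, Abcb11, the bile salt export pump, rose 1.40-fold in total RNA (adjusted p = 0.0289). Clpx, a mitochondrial protease subunit, rose 1.40-fold (adjusted p = 0.0449). Katnbl1, a regulator of the microtubule-severing enzyme katanin, stood out for its unlike assays. Katnbl1 total RNA was 5.16, 4.77, 4.50 and 6.16 RPKM at dawn against 1.68, 2.58, 1.56 and 1.44 in late night (2.79-fold, adjusted p = 0.0161), while its footprints were 2.76, 2.01, 2.57 and 1.96 against 3.68, 1.80, 2.72 and 2.43. The footprint to RNA ratio of Katnbl1 was lower at dawn by 1.64 on the log2 scale without passing the threshold (adjusted p = 0.17). Cars, the cytosolic cysteinyl-tRNA synthetase, rose 1.49-fold in footprints (adjusted p = 0.0232), alone among 20 synthetases, and Entpd7, a nucleotidase of internal membranes, rose by 0.86 on the log2 scale (adjusted p = 0.0426). Tmem39a, a membrane protein, and Gbp8, of the guanylate-binding family, were the other named rises of total RNA, at log2 changes of 0.77 and 1.09. With the GC trend removed 7 of the 13 called values of this group were kept, and those of Abcb11, Clpx, Eif3a, Gbp8, Hspa1b and Tmem39a were not. None was kept whichever single pool was left out.

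Several genes of lipid synthesis fell. Of 18 tested genes of fatty acid and triglyceride synthesis, 5 fell in total RNA (Acly, Agpat2, Dgat2, Gpam and Thrsp), 1 in footprints (Acly), and none rose. The median log2 change was −0.44 in total RNA and −0.14 in footprints, and 1 and 2 of the 18 values were positive. Acly (chr11:100476353-100528000), which makes cytosolic acetyl-CoA from citrate, had 126, 166, 139 and 142 RPKM of total RNA at dawn against 242, 239, 261 and 330 in late night. The groups lay well apart, with levels at dawn 0.536 of those in late night (0.443 to 0.649, adjusted p = 0.0161), and in footprints 0.613 (adjusted p = 0.0267). Gpam, which starts glycerolipid synthesis, fell to 110 ± 5.91 RPKM at dawn, against 173 ± 14.1 in late night (SD, n = 4 each, adjusted p = 0.0161). Dgat2, which completes triglycerides, fell to 0.733 of the late night level (adjusted p = 0.0423). Thrsp, a feeding-responsive lipogenic protein, had 244, 353, 250 and 243 RPKM at dawn against 749, 934, 580 and 366 in late night, with the late night pools widely spread, and was at 0.433 (adjusted p = 0.0465). Fasn, the fatty acid synthase itself, differed by −0.70 in total RNA (adjusted p = 0.0832) and −0.30 in footprints on the log2 scale, and Acaca, its committed step, by −0.08 and −0.01.

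Cholesterol synthesis had fewer calls. Of 17 tested genes of the pathway, 1 fell in footprints, none passed in total RNA, and the median log2 changes were −0.22 in total RNA and −0.26 in footprints, with 3 and 1 positive values. The gene called was Pmvk, a kinase of the mevalonate pathway. Its footprints were 52.9, 78.0, 60.7 and 62.8 RPKM at dawn against 105, 113, 107 and 128 in late night, a fall to 0.558 (0.466 to 0.67, adjusted p = 0.0232). No dawn pool reached the lowest late night pool there. In total RNA, where Pmvk stood at 0.64 of the late night level (adjusted p = 0.101), the periods overlapped. Aacs, which activates acetoacetate for lipid synthesis, fell to 0.48 in total RNA (adjusted p = 0.0441). Lpcat3, which remodels phospholipids and was picked after its values were seen, fell in total RNA by 0.52 (adjusted p = 0.0161) and in footprints by 0.50 (adjusted p = 0.046) on the log2 scale. Of the 7 called values of the named genes of lipid synthesis, 4 were kept with the GC trend removed, those of Aacs, Dgat2 and Thrsp being lost. None was kept whichever single pool was left out, and the highest adjusted p without a pool was 0.128.

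A few of the clock's repressors and outputs fell at dawn, and neither activator was called. Of 9 tested repressors and nuclear receptors of the clock, Cry2 fell in total RNA and Cry1 in footprints, with medians of −0.80 and −0.75 on the log2 scale. Cry1 footprints fell to 10.2 ± 1.53 RPKM at dawn, against 16.3 ± 1.28 in late night (SD, n = 4 each, adjusted p = 0.0426), and Cry1 total RNA differed by −0.57 on the log2 scale (adjusted p = 0.0643). Cry2 fell in total RNA to 0.575 (adjusted p = 0.029) and stood at 0.597 in footprints (adjusted p = 0.0943). The period genes Per1 and Per2 were below late night in every dawn pool of total RNA without passing, at log2 changes of −1.87 (adjusted p = 0.0547) and −1.28 (adjusted p = 0.0661), and their levels were low, under 10 RPKM in every pool.

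Nr1d1, which encodes the repressor REV-ERBα, moved within the dawn period. Its total RNA was 0.440 and 0.771 RPKM at ZT0 and 2.96 and 5.81 at ZT2, against 0.953 and 0.595 at ZT20 and 1.76 and 1.08 at ZT22. Only the ZT2 pools were high, so the periods overlapped (log2 0.60, adjusted p = 0.648), and between ZT2 and ZT0 Nr1d1 was called in footprints. Arntl total RNA was 14, 17.5, 19.8 and 19.5 RPKM at dawn against 11.8, 12.7, 16.7 and 17.7 in late night (log2 0.27, adjusted p = 0.367), and its footprints differed by 0.04. Clock differed by 0.42 in total RNA (adjusted p = 0.113) and 0.26 in footprints. Nr1d2 (0.18 and −0.24), Rora (−0.14 and −0.33), Bhlhe40 (−0.86 and −0.82) and Ciart (−0.99 and −0.94) did not pass in either assay.

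The output factors Dbp and Tef, which belong to the PAR bZIP family, both fell in total RNA. Tef had 10.1, 7.14, 5.51 and 8.74 RPKM at dawn against 25.5, 22.5, 18.9 and 16.1 in late night, or 0.379 of the late night level (adjusted p = 0.0161). Dbp was low throughout, at 0.625 to 1.09 RPKM at dawn and 1.94 to 3.51 in late night, and fell to 0.353 (adjusted p = 0.032). Footprints of Tef and Dbp were lower by 1.27 and 1.21 on the log2 scale without passing (adjusted p = 0.0737 and 0.0593). Of 22 tested clock-controlled outputs, Clpx and Insig2 rose and Tspan4 and Upp2 fell in total RNA, and Nampt, Tspan4 and Upp2 fell in footprints. Upp2, a uridine phosphorylase of the liver, had 94.6, 79.4, 90.1 and 105 RPKM of footprints at dawn against 190, 172, 165 and 238 in late night, a fall to 0.485 (adjusted p = 0.0125), and fell to 0.554 in total RNA (adjusted p = 0.0161). Nampt, the rate-limiting enzyme of NAD salvage, fell to 0.612 in footprints (adjusted p = 0.0232), while its total RNA differed by −0.43 on the log2 scale (adjusted p = 0.165). Tspan4, a membrane tetraspanin, fell by 0.82 in total RNA and by 0.75 in footprints. Of the 9 called values of the named clock genes and outputs, 6 were kept with the GC trend removed, those of Cry2, Dbp and Tspan4 in total RNA being lost. None was kept whichever single pool was left out.

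The fall with the clearest separation was that of Inmt (chr6:55170626-55175043), a methyltransferase of indole amines. Its total RNA was 759, 714, 641 and 658 RPKM at dawn against 1532, 1329, 1414 and 1327 in late night. The footprints were 739, 689, 662 and 594 against 1172, 1340, 1225 and 1502, and in both assays no pool came near the other group. Levels at dawn were 0.495 of those in late night in total RNA (0.43 to 0.569, adjusted p = 0.00206) and 0.513 in footprints (0.439 to 0.599, adjusted p = 0.00541). Cyp2a5 (chr7:26835305-26843548), a cytochrome P450 that oxidises coumarin and nicotine, fell further, to 0.367 in total RNA (adjusted p = 0.029) and 0.346 in footprints (adjusted p = 0.0426). Its late night total RNA was 558 and 623 RPKM at ZT20 and 355 and 272 at ZT22, so that it was already lower at the later hour, and 122 to 198 RPKM at dawn. Cyp2a5 was the single call in each assay among 28 tested genes of xenobiotic metabolism, and its reads may be shared with near-identical paralogs. Cyp2c38, another P450 with close paralogs, fell in footprints to 8.70 ± 0.659 RPKM at dawn, against 15.9 ± 1.77 in late night (SD, n = 4 each, adjusted p = 0.00842). Cyp7a1, the rate-limiting enzyme of bile acid synthesis, fell to 0.601 in footprints (adjusted p = 0.0481) and stood at 0.639 in total RNA (adjusted p = 0.0752).

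Further falls were those of Serpina6, Tsc22d3, Igf1, Igfals and Asl. Serpina6, the corticosteroid-binding globulin of plasma, had 51.1, 47.2, 61.7 and 52.7 RPKM of total RNA at dawn against 126, 104, 82.0 and 127 in late night, a fall to 0.49 (adjusted p = 0.0161), and fell to 0.533 in footprints (adjusted p = 0.0138). Tsc22d3, a glucocorticoid-induced gene also called GILZ, fell to 0.575 in total RNA (adjusted p = 0.0161), alone among 14 tested glucocorticoid and metallothionein genes, whose medians were −0.38 and −0.41. Igf1, the liver-made growth factor, was 238, 241, 237 and 238 RPKM at dawn against 326, 301, 338 and 309 in late night. It fell to 0.749 in total RNA (adjusted p = 0.0304), with footprints at 0.882 (adjusted p = 0.35), and Igfals, which carries it in plasma, fell by 0.58 on the log2 scale (adjusted p = 0.0456). These were the calls among 19 genes of the insulin, growth hormone and IGF axis. Asl, of the urea cycle, fell to 0.658 (adjusted p = 0.0449), alone among 30 genes of urea and amino acid metabolism.

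Acot3 and Acot1, acyl-CoA thioesterases induced by fatty acids, were the calls among 26 genes of fasting and fat oxidation. Acot3 total RNA was 0.481, 0.589, 1.25 and 0.397 RPKM at dawn against 3.08, 2.17, 6.61 and 3.59 in late night, or 0.197 of the late night level (0.107 to 0.363, adjusted p = 0.028), and its footprints fell to 0.255 (adjusted p = 0.0397). Both lie in a cluster of close paralogs that may share reads, and Acot3 was low. Hist2h3b, a replication-dependent histone gene with near-identical copies, fell to 0.346 in total RNA (adjusted p = 0.043), while its footprints differed by 0.23 on the log2 scale (adjusted p = 0.677). Of the cell type markers, Ecm1 and Fcgr2b fell in total RNA and Lrat in footprints, by 0.70, 0.50 and 0.47 on the log2 scale. The remaining named falls were those of Rnf186, a ubiquitin ligase (log2 −1.20, adjusted p = 0.0465), and Map1lc3a, an LC3 protein of autophagosomes (−0.68, adjusted p = 0.029), in total RNA, and of Map2k6, a kinase that activates p38 (−1.02, adjusted p = 0.0481), and Bnip3, a mitophagy receptor (−0.43, adjusted p = 0.0261), in footprints. Lamtor1, which anchors a nutrient-sensing complex at lysosomes, fell in total RNA. It differed by −0.66 in total RNA (adjusted p = 0.0276) and by 0.17 in footprints. Of the 24 called values named in this and the preceding 2 paragraphs, 15 were kept with the GC trend removed, and those lost were of Acot1, Asl, Ecm1, Hist2h3b, Igfals, Lamtor1, Map1lc3a and Rnf186 in total RNA and Lrat in footprints. Those of Inmt in both assays and Cyp2c38 were kept whichever single pool was left out.

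Lists without a call in either assay included the 19 genes of gluconeogenesis and glycogen, 9 immediate early genes, 33 proteasome subunits, 38 genes of ribosome biogenesis and 39 plasma proteins.

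The 4 h windows hide changes of a shorter kind, which were read from 2 h steps with 2 pools at each time. Between ZT22 and ZT20, 143 genes differed in total RNA (1.51%), 27 higher (0.286%) and 116 lower (1.23%) at ZT22, and 1 in footprints (0.0106%). Between ZT0 and ZT22, the step across lights on, 581 genes differed in total RNA (6.15%), 331 higher (3.5%) and 250 lower (2.65%) at ZT0, and 37 in footprints (0.392%), 18 higher (0.191%) and 19 lower (0.201%). Between ZT2 and ZT0, 13 genes were higher in total RNA (0.138%), 10 of them pancreas markers, and 20 differed in footprints (0.212%), 17 higher (0.18%) and 3 lower (0.0318%), 11 of them pancreas markers. The total RNA calls between ZT0 and ZT22 follow GC content, with medians of 41.4% among higher and 54.1% among lower genes. With the GC trend removed there were 37 calls in total RNA against 31 in footprints in that step. The total RNA calls between ZT22 and ZT20 were also split by GC content, with medians of 53.3% among higher and 40.8% among lower genes. That step was not fitted with the GC trend removed, so its total RNA calls carry no such check.

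The single footprint call between ZT22 and ZT20 was Pck1, the rate-limiting enzyme of gluconeogenesis. Its footprints were 1184 and 946 RPKM at ZT22 against 405 and 343 at ZT20, and 637 and 659 at ZT0. Levels thus stood highest at ZT22 and lower on either side, and the rise to ZT22 was 1.51 on the log2 scale in footprints (adjusted p = 0.0293) and 1.65 in total RNA (adjusted p = 0.00176). Total RNA of Pck1 then fell by 1.02 at ZT0 (adjusted p = 0.0176).

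Between ZT0 and ZT22, 20 genes were called in both assays, and those described here were picked after these values were seen. The largest change was that of Igfbp1, a liver-made binding protein of insulin-like growth factors that insulin represses. Its total RNA was 1.58 and 5.65 RPKM at ZT0 against 162 and 170 at ZT22, 53.5-fold lower (adjusted p = 0.0223), and its footprints were 2.30 and 11.3 RPKM against 270 and 343 (58.3-fold lower, adjusted p = 0.0483, and 0.0512 with the GC trend removed). It also varied between pools of 1 time point, with 43.4 and 158 RPKM of total RNA at ZT2 and 11.2 and 60.3 at ZT20. Cyp4a14, a fatty acid hydroxylase induced by fasting, had 6.57 and 6.34 RPKM of total RNA at ZT0 against 40.9 and 56.4 at ZT22. It was 7.35-fold lower in total RNA (adjusted p = 0.00253) and 7.24-fold lower in footprints (adjusted p = 0.0165), and was called in all 8 fits that left out a pool. Total RNA of Cyp4a14 was also higher at ZT22 than at ZT20 by 1.36 (adjusted p = 0.0315) and higher at ZT2 than at ZT0 by 1.76 (adjusted p = 0.0134) on the log2 scale, so it was lowest at ZT0 among these 4 time points, while over the whole day its mean was lower still at ZT16 (5.58 against 6.45 RPKM at ZT0). Ces2b, a carboxylesterase with close paralogs, ran the other way, with 6.24 and 7.52 RPKM at ZT0 against 1.09 and 0.429 at ZT22, 8.78-fold higher (adjusted p = 0.0176).

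Folding genes were among the rises of this step. Creld2, an ER chaperone, was 2.74-fold higher at ZT0 than at ZT22 in total RNA (adjusted p = 0.0176) and 2.82-fold in footprints (adjusted p = 0.0166). Creld2, which had 136 and 107 RPKM of total RNA at ZT0 and 138 and 120 at ZT2, had 77.8 and 95.1 at ZT20 and only 48.4 and 40.0 at ZT22, so late night held a fall of its own. Of the 19 endoplasmic reticulum chaperones, 4 fell between ZT22 and ZT20 in total RNA and 5 rose between ZT0 and ZT22, with medians of −0.40 and 0.38. Over all tested genes 1.23% fell and 3.5% rose in these steps. Hspa8, the constitutive cytosolic HSP70, rose 1.81-fold in total RNA (adjusted p = 0.0493) and 2.71-fold in footprints (adjusted p = 0.0259). Of the 22 heat shock genes 7 rose in total RNA and 2 in footprints, where 3.5% and 0.191% of all tested genes did. In total RNA 3 of the 22 fell between ZT22 and ZT20, with medians of −0.34 for that step and 0.36 for the next. Their centred total RNA medians were 0.063 and 0.058 at ZT0 against 0.088 and 0.098 at ZT20. These counts are from fits that left the GC trend in. Manf, Hspa5, Slc16a6 and Uap1 were also higher at ZT0 in both assays. With the GC trend removed, total RNA of Hspa8 (adjusted p = 0.0794), Slc16a6 (0.083) and Uap1 (0.0508) no longer passed, while that of Creld2, Manf and Hspa5 did, as did footprints of these 6 genes. Falls called in both assays included Fbxo32, a ubiquitin ligase of muscle wasting (log2 −1.65 in total RNA and −1.37 in footprints), Lpin2, a phosphatidate phosphatase (−1.31 in both), the transcriptional co-repressor Irf2bp2 (−1.98 and −1.58), the kinase Pim3 (−1.25 and −1.12) and the glutathione transferases Gsta2 (−1.13 and −1.45) and Mgst3 (−0.91 and −1.06). Of these falls, total RNA of Lpin2 passed with the GC trend removed (adjusted p = 0.0473), though its footprints did not (0.0531), and total RNA of Fbxo32, Irf2bp2, Pim3, Gsta2 and Mgst3 did not (0.0552 to 0.106). Each value rests on 2 pools a side, and the calls of genes other than Cyp4a14 held in 1 to 7 of the 8 fits that left out a pool.

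**Figure D3:**
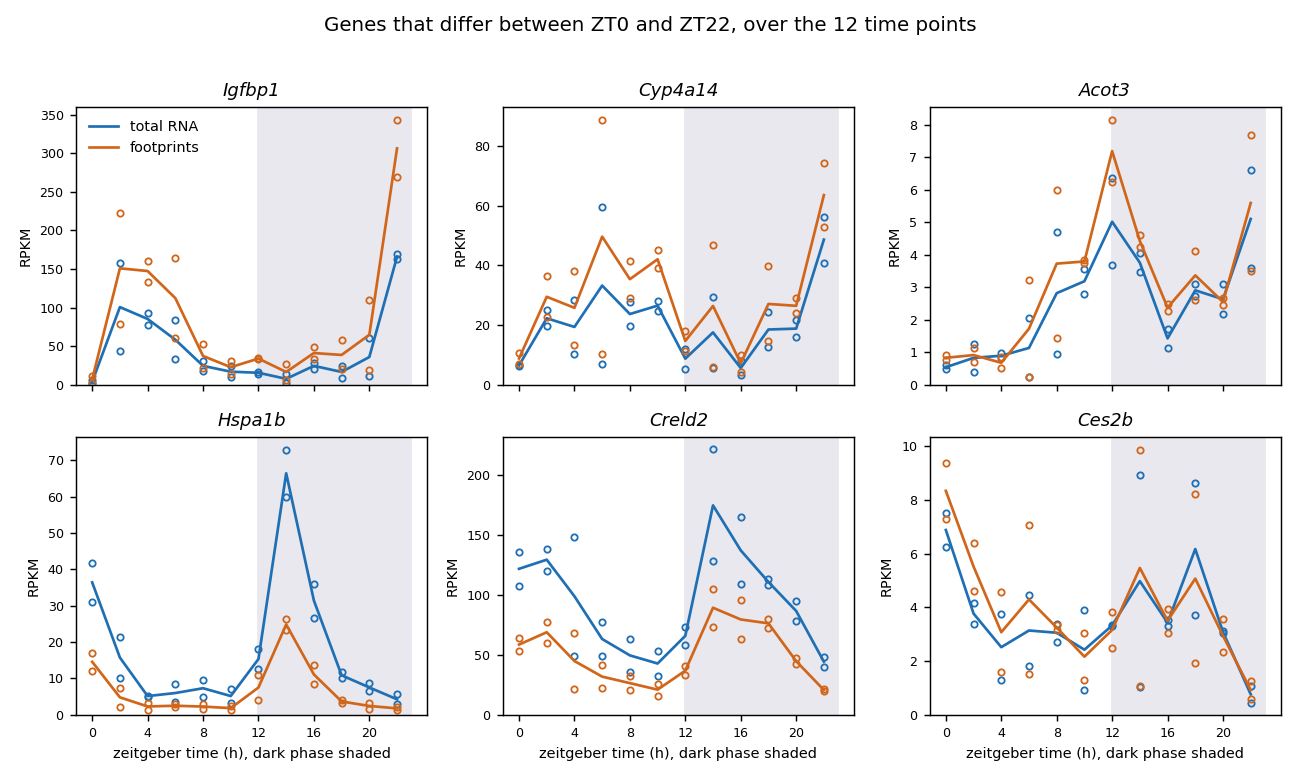
RPKM (vertical axis) of 6 genes against zeitgeber time in hours (horizontal axis, dark phase shaded), with total RNA and footprints in different colours, points for single pools and lines through the means of 2 pools. Cyp4a14 and Igfbp1 are high at ZT22 and low at ZT0, and Creld2 and Ces2b are low at ZT22 and high at ZT0.

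Footprints followed the RNA in direction for most called genes. Over the 9445 genes the changes between the periods correlated with a Pearson r of 0.555 (Spearman 0.379), as a description, since both assays drew on the same lysates. Between RNA and footprints of different pools r was 0.342 and 0.296, and between those of the same pools 0.54 and 0.479. Of the 139 total RNA calls, 123 had the same sign in footprints (88.5%), and of the 66 footprint calls 62 had the same sign in total RNA (93.9%), where 61.9% of all tested genes had. Both assays called 21 genes, 15.1% of the total RNA calls and 31.8% of the footprint calls, and all 21 with the same sign. Between ZT0 and ZT22, 444 of the 581 total RNA calls had the same sign in footprints. Of the 20 genes called in both assays there, mt-Nd6 went in opposite directions, higher at ZT0 by 1.26 in total RNA (adjusted p = 0.0223, and 0.242 with the GC trend removed) and lower by 0.86 in footprints (adjusted p = 0.0431) on the log2 scale. The 21 genes called in both assays between the periods include, beside genes described above, Ces1d, Cyp2c23, Gstt2, S100a13 and Tmem37. Footprint changes were smaller than RNA changes among the RNA calls, with a median ratio of 0.543, and RNA changes were smaller than footprint changes among the footprint calls, with a median ratio of 0.73. Each ratio is below 1 on the side that was not used to choose the genes, so neither ranks the assays.

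**Figure D4:**
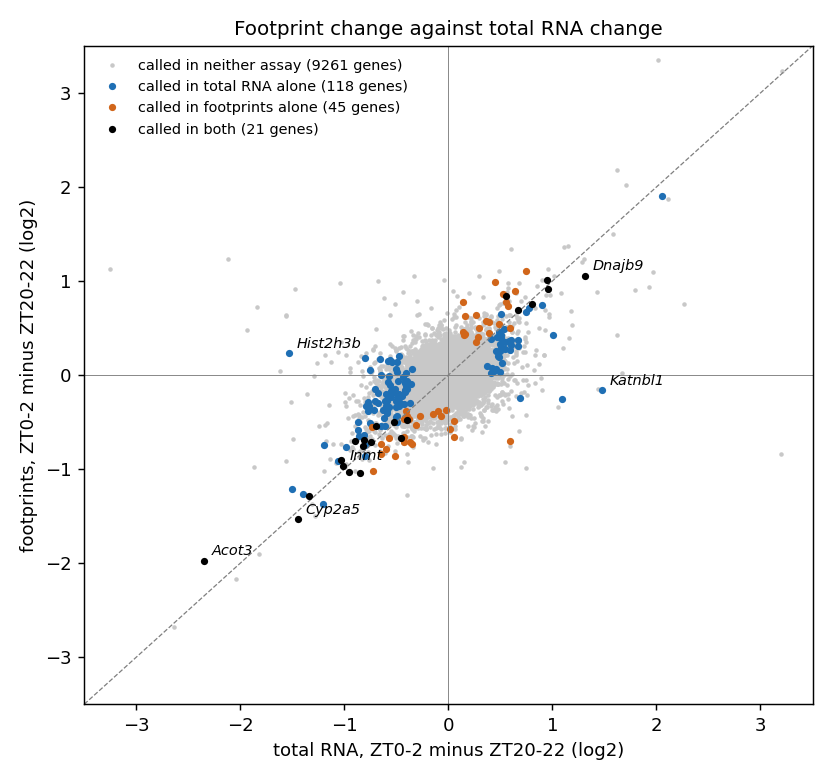
Each of 9445 genes is a point, with its log2 change in total RNA (horizontal axis) and in footprints (vertical axis), ZT0-2 minus ZT20-22. Colours mark 118 genes called in total RNA alone, 45 in footprints alone and 21 in both, all 21 in the same direction, the dashed line is equal change, and 10 genes lie outside the axes.

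A change in the ratio of footprints to RNA, the translation efficiency, was not detected for any single gene between the periods. The limma test of the interaction called 0 of 9445 genes, with 946 at an unadjusted p under 0.05, and the same test with the assays paired by lysate pool called 0 as well, with 1698. Across lights on, between ZT0 and ZT22, 23 genes were called (0.244%), 4 with a higher (0.0424%) and 19 with a lower (0.201%) ratio at ZT0. The ratio tests of the 2 h steps did not pair the assays by lysate pool, and no paired fit of a step was made. None of the 23 was called by limma with the GC trend removed, where 714 genes had an unadjusted p under 0.05. Between ZT22 and ZT20 the test called mt-Nd3 alone (0.0106%), and between ZT2 and ZT0 none, with 323 genes at an unadjusted p under 0.05.

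Ribosomal protein genes had lower medians at dawn in total RNA and not in footprints. Between the periods, the footprint to RNA ratio of none of these genes passed its test, unpaired or paired by lysate pool. Their mRNAs begin with a terminal oligopyrimidine tract, and their translation is known to follow growth signals. Of 33 small-subunit genes, Rps10 and Rps15 fell in total RNA, and of 46 large-subunit genes Rpl28, Rpl29, Rpl37a and Rpl38 fell, with none called in footprints. Median log2 changes were −0.24 and −0.25 in total RNA and 0.07 and 0.13 in footprints, so the median ratio was higher at dawn by 0.39 and 0.33, against 0.02 over all tested genes. The ratio was positive in 31 of 33 and 42 of 46 genes. It was not even within dawn, with median changes of 0.60 and 0.53 from ZT22 to ZT0 and of −0.50 and −0.44 from ZT0 to ZT2. All these medians are from fits that left the GC trend in. Both ZT22 libraries of total RNA were those shifted towards genes rich in G and C. Rps15 had 376, 408, 396 and 385 RPKM of total RNA at dawn against 561, 542, 569 and 551 in late night, a fall to 0.705 (adjusted p = 0.0161). Its footprints were 204, 191, 146 and 147 RPKM against 159, 179, 171 and 143, so the periods overlapped there (adjusted p = 0.835). Rpl37a fell to 0.72 in total RNA (adjusted p = 0.0299), with footprints 1.15-fold those of late night (adjusted p = 0.621).

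Within dawn the footprints of ribosomal proteins were uneven. The median over the 33 small-subunit genes of the centred log2 footprint level was 0.419 and 0.227 in the ZT0 pools and −0.212 and −0.252 in the ZT2 pools, against −0.133 and 0.011 at ZT20 and 0.196 and −0.183 at ZT22. Large-subunit genes gave 0.383 and 0.237 at ZT0 and −0.208 and −0.173 at ZT2. The ZT0 pools were the highest of the 8, and both ZT2 pools were low. Total RNA medians of the small-subunit genes were −0.235 to −0.062 at dawn and 0.103 to 0.160 in late night. Among single genes, the acidic stalk protein Rplp0 rose 1.64-fold in footprints at ZT0 over ZT22 (adjusted p = 0.0336). In that step limma also called a higher footprint to RNA ratio for 3 ribosomal proteins. These were Rplp0 (log2 0.96, adjusted p = 0.021), Rpl29 (0.95, adjusted p = 0.0255) and Rps15 (0.85, adjusted p = 0.0345). With the GC trend removed their log2 values were 0.77, 0.52 and 0.38, and none of the 3 ratios passed (adjusted p = 0.129, 0.384 and 0.7425). Reads of ribosomal proteins can be shared with their many pseudogenes, and 3 of the 10 called values of the ribosomal and respiratory genes named here and in the next paragraph were kept with the GC trend removed. In total RNA those of Rpl28, Rpl29, Rpl38, Rps10 and Rps15 were lost, with those of Ndufb4 and Sdhd.

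**Figure D5:**
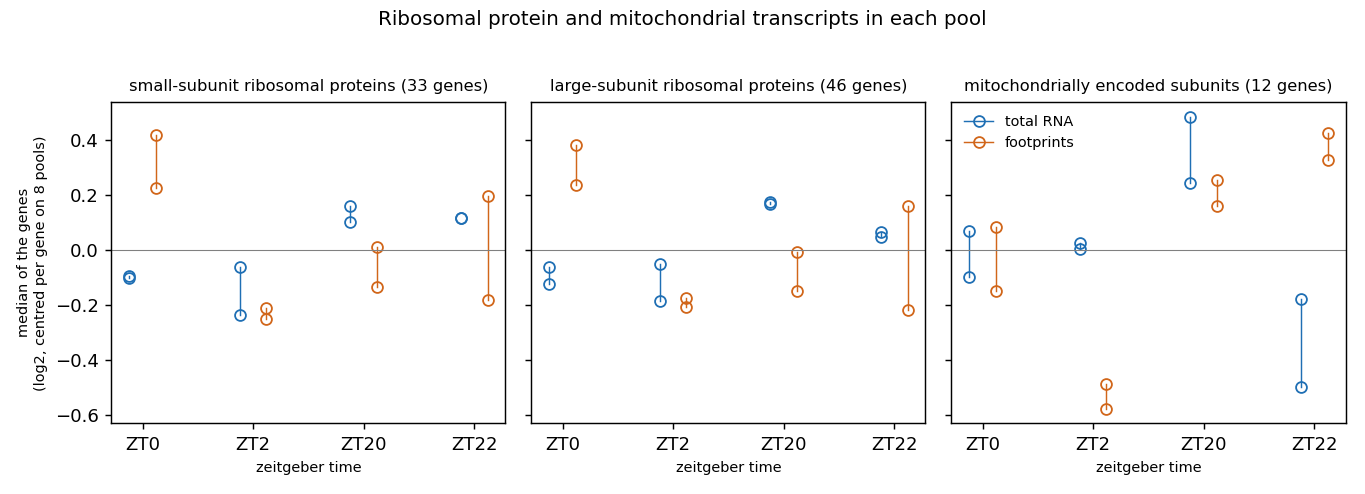
Medians per pool of the centred log2 level (vertical axis) for 33 small-subunit and 46 large-subunit ribosomal protein genes and 12 mitochondrially encoded genes, by time point, with total RNA and footprints in different colours. Small-subunit footprints are 0.419 and 0.227 in the ZT0 pools and −0.212 and −0.252 in the ZT2 pools.

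For the 12 respiratory chain genes encoded in mitochondrial DNA the median log2 change was −0.03 in total RNA and −0.57 in footprints. Their centred footprint medians were 0.083 and −0.149 in the ZT0 pools and −0.489 and −0.578 in the ZT2 pools, against 0.160 to 0.426 in late night. Total RNA medians were −0.099 to 0.069 at dawn, 0.243 and 0.485 at ZT20 and −0.499 and −0.178 at ZT22. Among these genes mt-Nd6, a complex I subunit, fell in footprints. It had 132, 126, 165 and 132 RPKM of footprints at dawn against 228, 203, 248 and 224 in late night, a fall to 0.614 (adjusted p = 0.0232), while its total RNA was 256 to 410 RPKM at dawn and 122 to 371 in late night. Its total RNA was low in both ZT22 pools, at 122 and 123 RPKM. Mitochondrial genes have nuclear copies, and mitochondrial ribosomes are not those that cycloheximide halts, so these values are uncertain. Of 73 nuclear genes of the chain, Ndufa3, Ndufb4 and Sdhd fell in total RNA, by 0.49, 0.42 and 0.40 on the log2 scale, and none in footprints.

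Ferritin, the store of iron in cells, is regulated in translation by iron. Fth1 footprints were 553 and 488 RPKM at ZT0 and 867 and 648 at ZT2, against 760 and 793 at ZT20 and 1484 and 1282 at ZT22. Over the periods the groups overlapped and no call was made (log2 −0.73, adjusted p = 0.174), and total RNA of Fth1 differed by −0.12. At ZT0 against ZT22, footprints were 2.65-fold lower for Fth1 (adjusted p = 0.0174) and 2.37-fold lower for Ftl1 (adjusted p = 0.0165), while total RNA differed by −0.19 and −0.36 on the log2 scale (adjusted p = 0.377 and 0.3). The ratio was lower by 1.21 for Fth1 (adjusted p = 0.0365, and 0.111 with the GC trend removed) and by 0.89 for Ftl1 (adjusted p = 0.12). Pabpc4, a poly(A)-binding protein, went up in footprints by 1.57 on the log2 scale (adjusted p = 0.0174), with total RNA lower by 0.29 (adjusted p = 0.411). Ferritin reads may be shared with pseudogenes.

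For scale, the other 5 neighbouring pairs of 4 h windows over the day called 31 to 341 genes in total RNA (0.328% to 3.61%) and 26 to 314 in footprints (0.275% to 3.32%), against 139 and 66 at the end of the night. ZT4-6 against ZT0-2 had the fewest in both assays. ZT8-10 against ZT4-6 called 233 (2.47%) and 127 (1.34%), ZT12-14 against ZT8-10 341 and 231 (2.45%), ZT16-18 against ZT12-14 150 (1.59%) and 314, and ZT20-22 against ZT16-18 182 (1.93%) and 68 (0.72%). Neighbouring comparisons share libraries, so their genes are not set against each other.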

How the data were processed

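The authors deposited 1 table of RPKM per library, by Ensembl gene. TopHat and TopHat2 2.0.11, Bowtie2 2.2.1, cutadapt, CASAVA 1.82, edgeR and Cufflinks 2.2.1 are named, per the submitters' processing notes, along with the builds mm10 and GRCm38.p2. Their roles and order are not given in the sources used. Lysis was in cycloheximide, RNase I trimmed the footprints, which were purified by size exclusion, and Ribo-Zero removed ribosomal RNA, per the labels' protocols. Upper quartiles were 26.6 to 27.9 RPKM in total RNA and 21.8 to 22.7 in footprints, so values are relative within an assay, and a change of all genes together would not be seen. Depth was estimated from RPKM times coding length, where 49.1% to 52.5% of low values in total RNA and 47.1% to 50.9% in footprints fell on multiples of 1 step (tolerance 0.04 of a step, 8.0% by chance).

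Total RNA listed 11155 genes and footprints 10980, 10829 of them in both. The annotation of GRCm38 (GENCODE M21) named 11242 of 11306 IDs. Tests took 9445 genes, those averaging 1 RPKM or more in each assay, on log2(RPKM + 0.1) with limma 3.58.1 (R 4.3.3, mean-variance trend), 4 pools against 4, with Benjamini-Hochberg adjustment over all 9445 and a threshold of 0.05. Fold changes are on this scale, ZT0-2 over ZT20-22, with 95% confidence intervals, and understate changes of low genes. Efficiency was the interaction of assay and period. The 2 h steps used the 4 time points as levels. Tables and figures used Python 3.11.15, numpy 2.4.6, pandas 2.3.3 and matplotlib 3.10.9, and the fits were tested on simulated data.

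RNA and footprint libraries of 1 lysate deviated together at every time point (r of 0.16 to 0.683), which pairs the assays, per the labels' protocols. Genes named are, per assay, the 10 largest rises and 10 largest falls among called genes whose groups do not overlap, called members of the gene lists (all where at most 4 were called in a direction, otherwise the 4 largest), and the core clock and ferritin genes. Others were picked after their values were seen. Some genes are not reported here and were left out of the lists, though the fits over all genes hold them. The libraries, gene lists and tests were chosen with earlier results of these data known.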

Additional observations from a re-analysis of the deposited data

Results flagged for a closer look

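Among 316 sets of 4 pools (79 named genes, 2 assays, 2 periods), 11 held a pool farther from its nearest neighbour than Dixon's 95% critical value for 4 values allows, as a share of the set's range. Chance flags about 1 in 20 such sets. At dawn, Dnajb9 footprints had 107 RPKM in a ZT0 pool against 132 to 135 in the other dawn pools, Dgat2 footprints 143 RPKM in a ZT2 pool against 124 to 126, Cry1 total RNA 14 RPKM in a ZT2 pool against 19.7 to 20.7, and Nampt total RNA 31.4 RPKM in the same ZT2 pool against 42.3 to 43.2. Thrsp total RNA had 353 RPKM in a ZT0 pool against 243 to 250. In late night, Dnajb9 footprints had 50 RPKM in a ZT20 pool against 64.5 to 65.6, and Ndufa3 total RNA 232 RPKM in the same pool against 256 to 260. Aacs total RNA had 41 RPKM in a ZT22 pool against 60.2 to 61.9, and Ecm1 footprints 138 RPKM in the same pool against 117 to 119. The other ZT22 pool had 42 RPKM of Acot1 footprints against 23.8 to 25.8 and 2.23 RPKM of Slc16a6 total RNA against 2.13 to 2.14. These single pools leave the periods of Dnajb9 and Slc16a6 apart, and what set them off was not tested.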

How the results depend on the processing

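Calls were few, and their number moved with the estimate of the spread. From 139 in total RNA and 66 in footprints, it moved to 546 and 210 with the 4 time points as levels, 1195 and 195 with all 24 libraries of an assay, 47 and 26 without a mean-variance trend, and 0 and 0 without the pools holding pancreatic transcripts (1370 and 1506 at an unadjusted p under 0.05). With a minimum mean of 5 RPKM footprints gave 117 calls. With the GC trend removed, an alternative chosen after seeing the data, total RNA gave 74, of which 56 were among the 139, and footprints 88, of which 62 were among the 66. Pools numbered alike at different time points share only a number: with a replicate block the counts were 43 and 16, and the correlation of their deviations was −0.201 to 0.147. Leaving out ZT0 replicates 1 and 2 in turn gave 4 and 10 calls in total RNA and 16 and 19 in footprints, ZT2 replicates 2 and 78 and 9 and 24, ZT20 replicates 296 and 12 and 7 and 7, and ZT22 replicates 7 and 75 and 12 and 46. Efficiency had 0 calls in the main fit and 0 paired by lysate pool (replicate block), 48 with all 24 libraries, 0 to 1 without a pool, and 0 to 4 without a pool in the paired fit, where 1 came without ZT20 replicate 1 and 4 without ZT22 replicate 2. A pseudocount of 1, division by library medians and the other alternatives left these counts within 1.5 times. A like count can hold other genes. Without both ZT22 pools there were 107 calls in total RNA, 51 of them among the 139, and 61 in footprints, 22 of them among the 66.

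Between ZT0 and ZT22, total RNA had 581 calls, 37 with the GC trend removed, 1298 with the spread of 24 libraries, and 6 to 564 without a pool, with 6 without either ZT0 pool, 186 without ZT22 replicate 1 and 11 without ZT22 replicate 2. Footprints had 37 and, without a pool, 9 (ZT0 replicate 1) to 183 (ZT22 replicate 1). Efficiency had 23, 86 after division by library medians, 0 with the GC trend removed (714 at an unadjusted p under 0.05), 173 with the spread of 24 libraries, and 0 (without ZT0 replicate 1 or ZT22 replicate 2) to 28 without a pool.

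Of 1508 values of named called genes over all alternatives, 834 stayed past the threshold, 674 lost it and 0 changed sign. The genes were chosen as called in the main fit, and without overlap of the groups a left-out pool could not change the sign. Of 80 called values, 73 were kept with all 24 libraries, 52 with the GC trend removed, 39 without both ZT22 pools, 0 without both ZT2 pools and 7 whichever pool was left out, and no fold moved by more than 1.314 times without a pool. Leaving out ZT2 replicate 1 ended 70 of the 80 calls and leaving out ZT20 replicate 1 ended 28. Among uncalled clock genes, footprints of Arntl (0.04 in the main fit, −0.029 to 0.131 without a pool) turned to −0.029 without ZT2 replicate 1, −0.013 and −0.023 without a ZT20 replicate and −0.098 without the pancreatic pools, total RNA of Nr1d1 to −0.72 without the pancreatic pools, and total RNA of Rora to 0.0035 without both ZT22 pools, and the cause was not tested. With 4 pools a period, genes of few reads such as Dbp, Acot3 and Per1 are read least surely.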
